A study of Drosophila melanogaster with 3 samples.

Results

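The genes described here are 10 Drosophila genes that make ecdysteroids, the steroid hormones that drive molting and metamorphosis. They are nvd, spo, spok, phtm, dib, sad, shd, sro, nobo and Start1, chosen by name from the known pathway, out of 13945 protein-coding genes examined. A peak was counted at a gene when its summit lay in the gene body or within 5 kb of a transcription start site (TSS). Peaks strong enough for the study's optimal set lay at 3 of the 10 loci, those of shd, sro and sad. At shd there were 8 of them, at sro 2 and at sad 1. No list held a peak at nvd, spo or spok, and phtm, dib, nobo and Start1 had peaks outside the optimal set only.

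The data came from chromatin immunoprecipitation and sequencing (ChIP-seq) of SREBP, a membrane-bound transcription factor that is released by proteolysis when lipids are scarce. All 3 biological replicates were larvae of the third instar, in the wandering stage, from 1 transgenic line that carries SREBP with GFP joined to its N-terminus, and an antibody against GFP was used. Both sexes were pooled, the age was recorded as unknown, and the antibody field of the labels names HLH106, another name of SREBP. The 3 replicates form 1 group of 1 line, so there was no comparison between conditions, and the labels do not say whether the untagged protein was also present. Whole animals were used, so a peak mixes how many cells carry the protein at a site with how much of it each cell carries. Each replicate list and the list called on the pooled replicates held 30000 peaks, and the 7993 strongest of the pooled peaks made up the optimal set. Peaks were ranked within each list by the signal value, where rank 1 is the strongest. Reads are not part of these lists, so the depth behind each peak is unknown, and no control samples were analysed here.

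Insects cannot make sterols and build ecdysteroids from dietary sterols. In the prothoracic gland of the larva a chain of oxidation steps turns cholesterol into ecdysone, which is released into the blood. Peripheral tissues such as fat body, gut and Malpighian tubules then convert ecdysone into the active hormone 20-hydroxyecdysone. Most of the enzymes are cytochrome P450s, known as the Halloween genes because their mutants die as embryos with little cuticle. The prothoracic gland is a small part of the larva, and a lack of peaks in whole-animal lists was not tested against binding in the gland alone.

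The share of the 10 genes with an optimal peak was below that of all genes. An optimal peak lay at 55.7% of the 13945 genes and at 3 of the 10 pathway genes. Within 500 bp of a TSS, here called a promoter, 28.7% of all genes and 2 of the 10 genes, shd and sro, had an optimal peak. Within 250 bp these were 23.5% of all genes and sro. Among the 3996 strongest optimal peaks, 17.6% of all genes and none of the 10 had one at the promoter. The pooled list had a peak at 74.8% of all genes and at 6 of the 10, which were phtm, sad, shd, sro, nobo and Start1. At promoters the pooled list had a peak at 47.8% of all genes and at 4 of the 10, phtm, sad, shd and sro. Some of these pooled peaks were weak by the deposited -log10 q-value, where higher is more significant. It was 0.212 or lower for phtm, 0.652 for Start1 and 0.286 for the sad promoter peak. The optimal peaks at sad, shd and sro had 4.2. A nearby gene can own a peak, and 29.1% of all genes had an optimal locus peak that was nearer to their own TSS than to any other protein-coding TSS. Of the 10 genes, shd and sro met that rule, and the single optimal peak at sad did not. These counts are descriptions without a test. Of the other cytochrome P450 genes, 21 of 83 (25.3%) had an optimal peak at the locus and 7 had one at the promoter. Some neighboring P450 genes shared a peak, and 9 of the 83 had an optimal locus peak nearest to their own TSS.

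**Figure D1:**
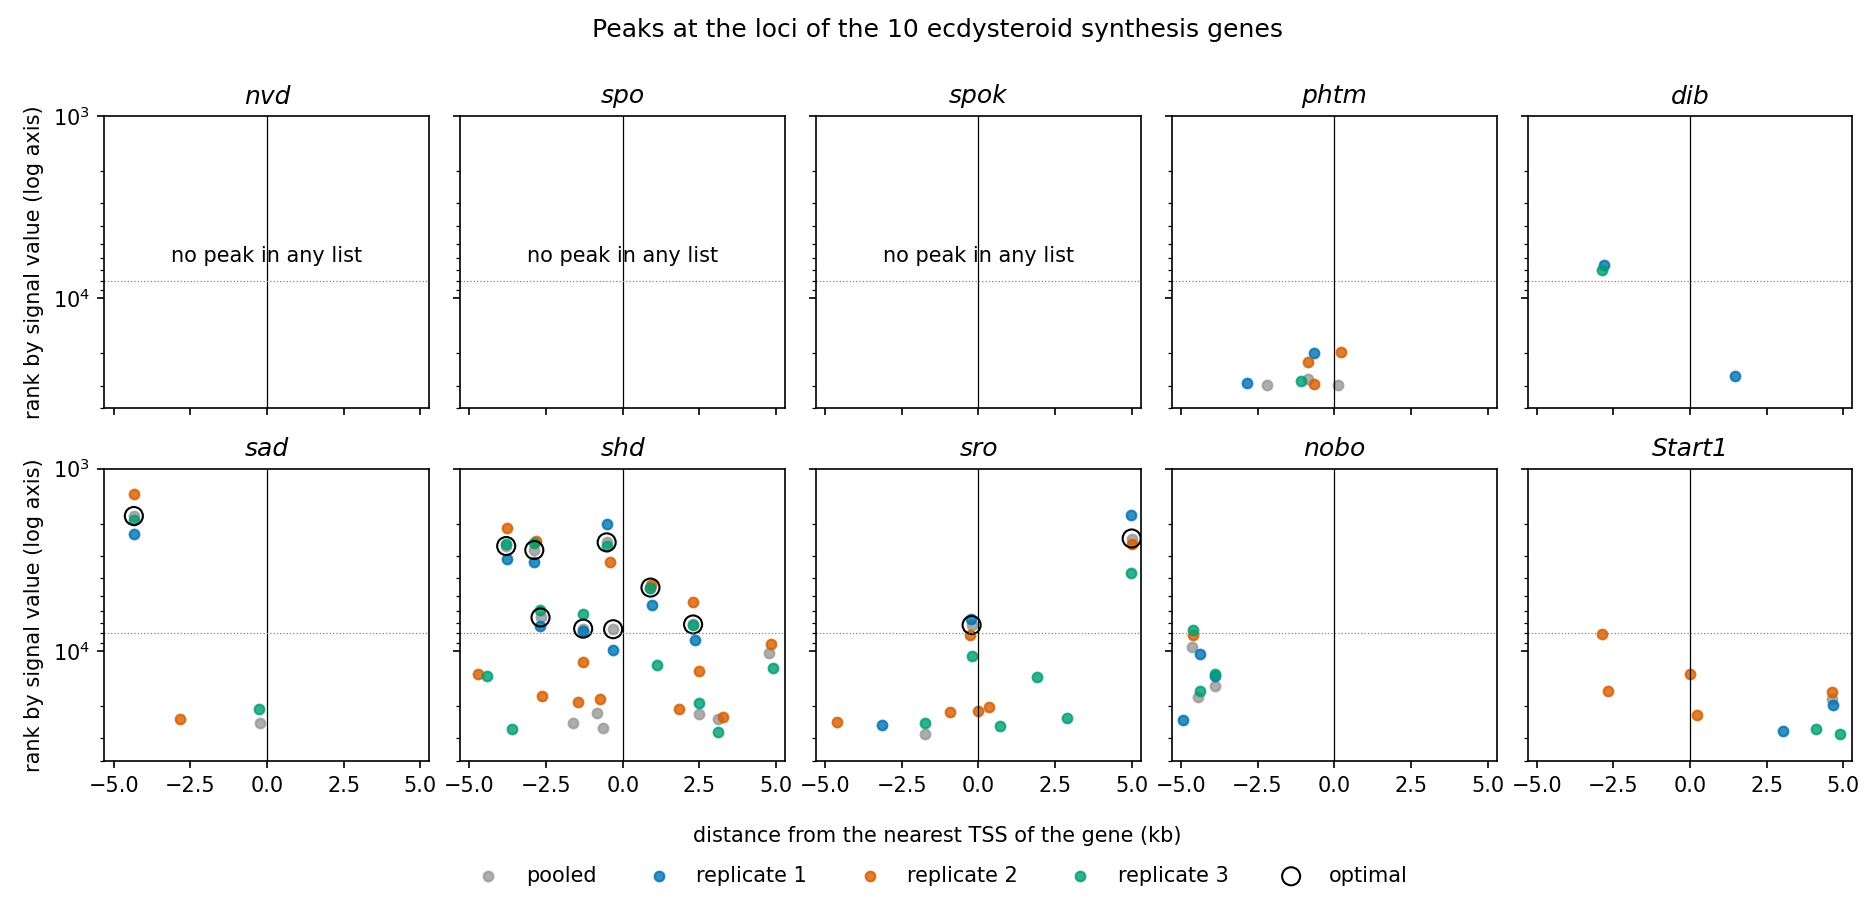
Summits at the 10 loci by distance from the nearest TSS of each gene (x axis, kb, negative is upstream) and rank by signal value within the list (y axis, log scale, strongest at the top), with list by color and optimal peaks ringed. The dotted line marks rank 7993. Optimal peaks lie at sad, shd and sro, and nvd, spo and spok have no point in any list.

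The gene shd encodes the mitochondrial P450 that turns ecdysone into 20-hydroxyecdysone in peripheral tissues, and it carried most of the pathway's peaks. Its locus is on chr3L:14614458-14622205 on the plus strand (FBgn0003388), with a pair of TSSs, and 8 of the 11 optimal peaks at the 10 genes lay there. The 8 summits spread over 6097 bp, 6 of them upstream of the first TSS and 2 in introns. They were not all separate regions. The peak intervals at -2884 and -2681 bp overlapped, and the summits at -524 and -313 bp shared an interval. The nearest TSS was that of shd for all 8, and no summit came closer than 6043 bp to the TSS of another gene. All genes had a median of 1 optimal peak at the locus, and 124 genes (0.889%) had 8 or more. Locus size matters for such a count, and among the 535 genes whose searched window was within 10% of the length of that of shd, 3 (0.561%) had as many. Those 3, named after their values were seen, were COX7AL2 with 10, HmgZ with 9 and Pgk with 8.

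**Figure D2:**
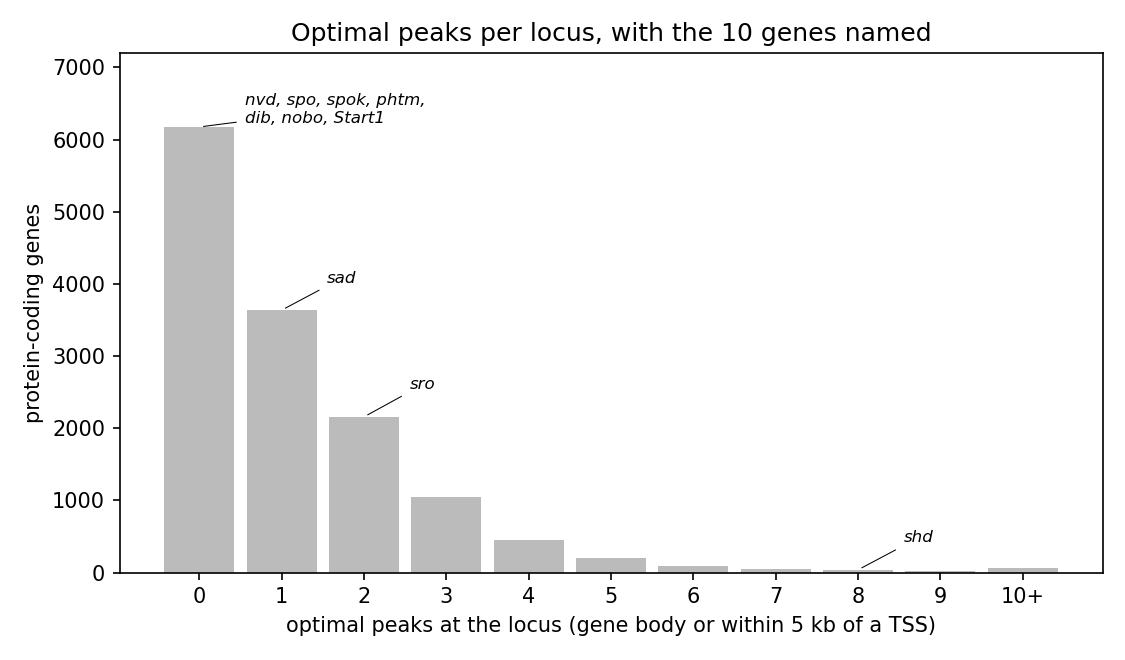
Number of protein-coding genes (y axis) by the number of optimal peaks at the locus (x axis), with loci of 10 or more peaks in the last bar. The 10 ecdysteroid synthesis genes are named over their bars, with 7 at 0 peaks, sad at 1, sro at 2 and shd at 8.

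The strongest peak of shd lay at -524 bp (rank 2537 of 7993), followed by peaks at -3801 bp (rank 2657) and -2884 bp (rank 2796), where negative distances are upstream of the TSS. These 3 were among the 3996 strongest of the optimal set, and the other 5 ranked from 4488 to 7591. The summit at -524 bp was just outside the 500 bp promoter limit, and the weakest optimal peak, at -313 bp, was the promoter call. The sequences around 5 of the upstream summits are printed to show the DNA at the strongest sites and at the sites with a searched motif. Each is the 101 bp centered on the summit, from the RefSeq copy of the dm6 assembly on the plus strand, with matches to an E-box (CANNTG) or a GATA motif (AGATAA, here as its reverse complement) in capitals.
shd -3801 bp, chr3L:14610607-14610707: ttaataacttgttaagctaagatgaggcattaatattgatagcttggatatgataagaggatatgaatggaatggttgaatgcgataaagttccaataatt
shd -2884 bp, chr3L:14611524-14611624: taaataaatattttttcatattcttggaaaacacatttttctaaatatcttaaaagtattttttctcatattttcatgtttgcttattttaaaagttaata
shd -1291 bp, chr3L:14613117-14613217: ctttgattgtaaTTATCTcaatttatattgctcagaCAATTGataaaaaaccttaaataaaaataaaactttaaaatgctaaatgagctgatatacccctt
shd -524 bp, chr3L:14613884-14613984: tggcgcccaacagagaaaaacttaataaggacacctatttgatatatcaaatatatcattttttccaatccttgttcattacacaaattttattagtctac
shd -313 bp, chr3L:14614095-14614195: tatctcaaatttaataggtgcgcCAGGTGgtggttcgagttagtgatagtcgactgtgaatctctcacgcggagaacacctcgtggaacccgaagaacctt

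The 3 strongest of these windows held none of the motifs searched. The window at -2884 bp had a G+C content of 15.8% and that at -313 bp 48.5%, the lowest and the highest of the 11 optimal peaks at these genes. Over all 7993 optimal summits the median was 30.7%.

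The replicates placed the strong shd peaks at similar ranks. The peak at -3801 bp ranked 3116, 2107 and 2586 in replicates 1, 2 and 3 (mean 2603, SD 505). That at -2884 bp ranked 3264, 2495 and 2546 (mean 2768, SD 430). The peak at -524 bp ranked 2020, 3268 and 2644 (mean 2644, SD 624). Their ranges overlapped, so the order of these 3 peaks was not larger than the spread between replicates.

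The intronic peaks at 905 bp and 2295 bp downstream of the first TSS were also found in all 3 replicates. Ranks were 5612, 4349 and 4493 for the first (mean 4818, SD 691) and 8716, 5375 and 7213 for the second (mean 7101, SD 1673). Every rank of the first peak but that in replicate 1 was above all ranks of the second. The peak at -2681 bp varied most, with ranks 7281, 17631 and 5972, and was weak in replicate 2. The peak at -1291 bp ranked 7756, 11467 and 6279.

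The pair of summits at -524 bp and -313 bp was split differently in each replicate. Replicate 1 had both, at ranks 2020 and 9873. Replicate 2 had 1 summit between them at rank 3268, which lay 123 bp from the first pooled summit and 88 bp from the other. Replicate 3 had a summit 27 bp from the first and none matched to the second. Each replicate nonetheless had a shd summit within 500 bp of the TSS. Both summits shared 1 interval in the optimal set, as did 149 of 7993 optimal peaks (1.86%) with some other peak.

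Below the optimal threshold the pooled list added 6 weaker shd peaks, for 14 in all. They ranked from 10285 to 26517, and 4 of them were nearest to a TSS of shd. Replicates 1, 2 and 3 listed 8, 14 and 13 peaks at the locus.

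**Figure D3:**
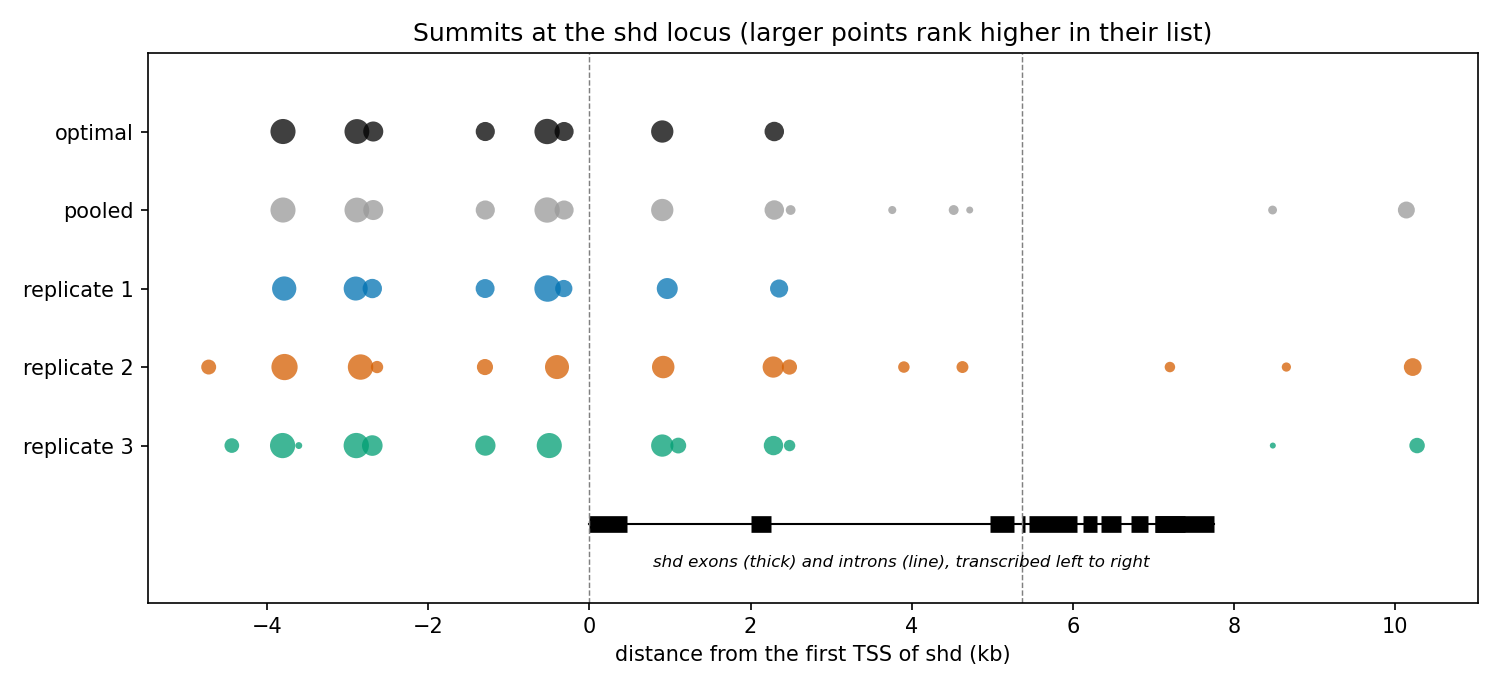
Summits at the shd locus in the optimal set, the pooled list and the 3 replicates (rows) by distance from the first TSS of shd (x axis, kb), with larger points for stronger ranks and the exons drawn below. The 8 optimal summits lie from -3801 bp to 2295 bp of the first TSS (left dashed line), and none is nearest to the other TSS (right dashed line).

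The gene sro encodes a short-chain dehydrogenase of the so-called black box, the steps between 7-dehydrocholesterol and the first ketodiol. It lies on chr3R:29794597-29795805 on the plus strand (FBgn0262112) and had 2 optimal peaks. The promoter peak at -224 bp ranked 7199 and was nearest to the TSS of sro. Its ranks in replicates 1, 2 and 3 were 6670, 8163 and 10590 (mean 8474, SD 1978), so all 3 had it, in the weaker part of the optimal range or below. The 101 bp around its summit, printed as the only optimal promoter window of the 10 genes other than that of shd, held none of the motifs searched.
sro -224 bp, chr3R:29794323-29794423: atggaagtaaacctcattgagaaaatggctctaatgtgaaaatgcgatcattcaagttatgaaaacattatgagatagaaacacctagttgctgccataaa

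The stronger sro peak lay at 4997 bp downstream of its TSS, at rank 2416, just inside the 5 kb limit. It was at -64 bp of the TSS of Drice, an effector caspase gene, and at -240 bp of that of Rnb. Replicates 1, 2 and 3 ranked it 1796, 2578 and 3731 (mean 2702, SD 973). All 3 of these ranks were above all 3 of the promoter peak, so the Drice peak was the stronger in each replicate. With each peak given to the nearest TSS only, sro kept the promoter peak alone.

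The gene sad encodes the mitochondrial P450 of the last step to ecdysone in the gland. It lies on chr3R:11877235-11879754 on the plus strand (FBgn0003312). Its single optimal peak ranked 1819 of 7993, above the others at the 10 loci in the optimal set and in replicates 2 and 3, but lay at -4342 bp. In replicate 1 the sro peak next to Drice (rank 1796) and the shd peak at -524 bp (rank 2020) ranked above it. The nearest protein-coding TSS was that of CG6959, with the summit at -3433 bp of it. The replicates ranked it 2277, 1373 and 1923 (mean 1858, SD 456) with summits within 14 bp of the pooled one. The neighbors in rank lay nearest to org-1 (rank 1818) and CG43195 (rank 1820). The window around this summit is shown as that of the highest optimal rank, and it held none of the motifs searched.
sad -4342 bp, chr3R:11872843-11872943: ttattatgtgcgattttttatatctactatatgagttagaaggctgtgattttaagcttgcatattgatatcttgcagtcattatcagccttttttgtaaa

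Being nearest to another gene was common. Among all genes, 3717 (26.7%) had optimal peaks at the locus but none nearest to their own TSS, as sad did. At the promoter of sad itself the pooled list had a peak at -229 bp with rank 24931 and a -log10 q-value of 0.286. A matching peak was found in replicate 3 at rank 20691, and in neither of the others.

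The P450 genes phtm and dib had no peak matched in all 3 replicates. The gene phtm (FBgn0004959, chrX:18685766-18688433, plus strand) encodes the P450 of the first of the terminal hydroxylations. Its 3 pooled peaks ranked 27461, 29816 and 29946 of 30000, at -864, 137 and -2182 bp, near the end of the list. Their -log10 q-values were 0.212, 0.162 and 0.159. The peaks at -864 and 137 bp were matched in replicate 2 only, and that at -2182 bp in no replicate. The best ranks in replicates 1, 2 and 3 were 19886, 19678 and 28429.

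The gene dib (FBgn0000449, chr3L:4062292-4064551, plus strand) encodes the mitochondrial P450 that acts between phtm and sad. It had no pooled peak, although replicate 1 had one at -2801 bp with rank 6572 and replicate 3 one at -2881 bp with rank 6995. Replicate 2 had none there. In replicates 1 and 3 these ranks were above those of the optimal sro promoter peak, 6670 and 10590. The summits lay at -279 and -359 bp of the TSS of Ugt305A1, closer than to that of dib. Of the 7993 strongest peaks of replicate 1, 6671 were matched among the 7993 strongest of replicate 3, and 81 of these (1.21%) had no pooled summit within 300 bp. A weak peak of replicate 1 lay in the coding sequence of dib, at 1479 bp and rank 26511.

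The genes nobo and Start1, which handle the sterol itself, had pooled peaks only where the nearest TSS was that of another gene. The gene nobo, listed as GstE14 (FBgn0033817), encodes a glutathione S-transferase needed for sterol use in the gland. Its pooled peaks at -4643, -4442 and -3893 bp ranked 9490, 17791 and 15561. The first 2 were nearest to Qsox1 and the other to CG4676. In replicates 1, 2 and 3 the best rank was 10385, 8124 and 7628.

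The gene Start1 (FBgn0035028) encodes a START domain protein related to a cholesterol carrier of vertebrates. Its pooled peak lay at 4640 bp with rank 18375 and a -log10 q-value of 0.652. That peak was nearest to pio and was matched in replicates 1 and 2. Replicate 2 alone had a summit at -4 bp of the Start1 TSS, with rank 13414, and another at 231 bp with rank 22462. Its best rank there, 8087, belonged to a summit at -2877 bp that was nearest to Fcp1.

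No peak lay at nvd, spo or spok in the optimal set, the pooled list or any replicate, which held for 1237 of all genes (8.87%). The gene nvd (FBgn0287185, chr3L:24324866-24401655, plus strand) encodes the Rieske oxygenase that makes 7-dehydrocholesterol, the first step. The genes spo (FBgn0003486, chr3L:5590083-5592571, minus strand) and spok (FBgn0086917, chr3R:3322810-3354486, plus strand) encode related P450s of the black box. In flies spo is known for its role in embryos and in the ovary, and spok for that in the larval gland.

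The empty loci of nvd and spok were large, with searched windows of 81790 and 36677 bp. Among genes whose windows were within 10% of those lengths, 74.1% of 58 and 70.2% of 188 had an optimal peak. Both genes lay where few peaks were listed at all. In the 1 Mb around nvd the pooled list had 6 peaks, against 239 per Mb over arm 3L. Around spok it had 3, against 215 per Mb over arm 3R. Each 1 Mb region held only 6 protein-coding genes. An optimal peak lay at 1 of those around nvd and at 0 around spok.

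Replicates 1, 2 and 3 listed 10, 1 and 6 peaks in the 1 Mb around nvd, and 14, 0 and 6 around spok. The nearest optimal summits were at -296492 bp of the TSS of nvd and at 874471 bp of that of spok. Lower-case repeats in the assembly covered 42.7% of the nvd locus and 52.4% of the spok locus, against 5.4% to 18.3% at the other 8 genes. The part of repeats or of read mappability in these empty loci was not tested.

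The spo locus differed, with 11 optimal peaks within 50 kb of the gene and none within 5 kb. The nearest summit was 8716 bp from its TSS, at rank 1087, and at -116 bp of the TSS of l(3)psg2. Widening the limit to 10 kb raised the count of genes with an optimal peak from 3 to 7 of the 10, by adding spo, dib, nobo and Start1, and that of all genes to 70.5%. The closest optimal summit to each of these 4 genes was nearest to the TSS of another gene, namely l(3)psg2, CG32259, Pex13 and uri. Counting the gene body alone left shd, and 16.0% of all genes.

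The 3 replicates gave nearly the same genes by the locus rule, though at phtm and Start1 not at the same positions. Replicate 1 had a peak at 7 of the 10 loci, replicate 2 at 6 and replicate 3 at 7, and the difference was dib. Of all genes, 82.5%, 70.9% and 80.8% had a peak at the locus in replicates 1, 2 and 3. At promoters the replicates had peaks for 2, 4 and 3 of the 10 genes, against 47.3%, 50.8% and 50.4% of all genes. Both shd and sro were called in every replicate. The promoter calls of phtm and Start1 came from replicate 2, and that of sad from replicate 3.

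An optimal locus peak matched in all 3 replicates, with summits within 150 bp, was present at 51.6% of all genes and at sad, shd and sro. Of the 11 optimal peaks at the 10 genes, 10 were matched in all 3 replicates, and the other was the shd peak at -313 bp. Of all 7993 optimal peaks, 7359 (92.1%) were matched in the 3 replicates. The median distance between matched summits was 13.5 bp, and it was 13.0 bp over all optimal peaks.

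**Figure D4:**
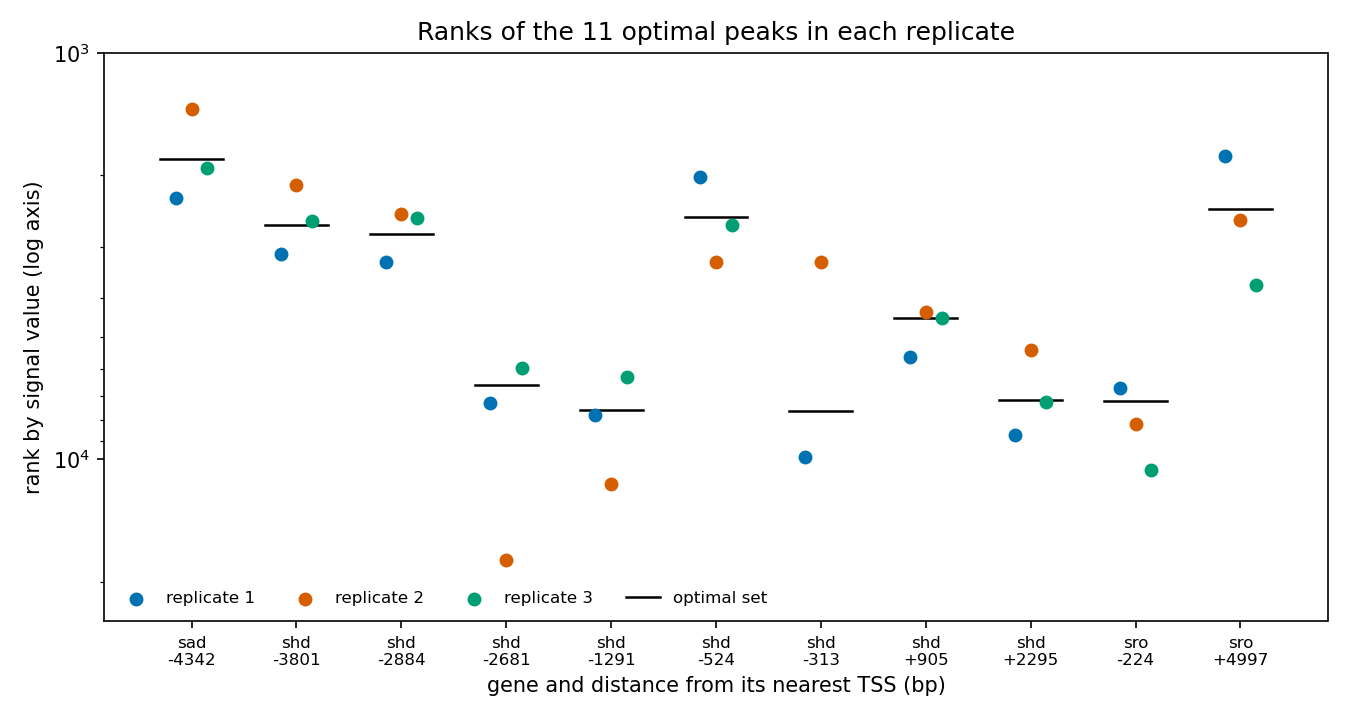
Rank by signal value (y axis, log scale, strongest at the top) of the 11 optimal peaks at sad, shd and sro in the 3 replicates (points) and in the optimal set (line), by distance from the TSS in bp. The peaks at -3801, -2884 and -524 bp of shd stay between ranks 2020 and 3268 in all 3 replicates, and the shd peak at -2681 bp falls to 17631 in replicate 2.

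The letters of 9 motifs were searched on both strands within 50 bp of the 11 optimal summits. SREBP proteins of mammals are known to bind both E-boxes and sterol response elements. The general E-box CANNTG was found at 3 of the 11 peaks, all at shd, and at 31.8% of all optimal peaks. The 3 matches were CAATTG at -1291 bp, CAGGTG at -313 bp and CAGCTG at 2295 bp. The canonical E-box CACGTG was at none of the 11 and at 0.576% of all, and the sterol response element TCACNCCAC at none and at 0.15%.

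The GATA motif AGATAA was at 1 of the 11 peaks, shd at -1291 bp, and at 8.22% of all. The other 5 motifs were at none of the 11. Of all optimal peaks, 1.44% held the DRE, whose letters are TATCGATA, and 0.701% the M1BP motif, whose letters are GGTCACACT. The GAGA motif, searched as GAGAGAG, was at 0.976%. A single nuclear receptor site, searched as AAGGTCA, was at 0.651%. The AP-1 motif, searched as TGANTCA, was at 2.68%. None of these motifs overlapped another at the printed windows. Within 100 bp the E-box was at 5 of the 11 peaks and at 56.9% of all.

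Of 39 other genes that supply, regulate or clear ecdysteroids, 25 (64.1%) had an optimal peak at the locus, beside the 55.7% of all genes, and the difference was not tested. Within 500 bp of a TSS the count was 15 of 39, beside 28.7% of all genes. All 4 genes of electron transfer to P450s had an optimal peak at the locus, and 2 of them, Fdx1 and Cpr, had one at the promoter. Fdx1, a ferredoxin, had 5 at its locus, the strongest at -69 bp with rank 3546, and the P450 reductase gene Cpr had one at -140 bp with rank 6419. The stronger of 2 peaks at dare, the ferredoxin reductase gene (rank 488), was nearest to Fbl6. The peak at Fdx2 (rank 3166) was nearest to Hexo1.

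Of 8 genes of sterol supply, 4 had an optimal peak, beside 55.7% of all genes. Hr96, a nuclear receptor that senses sterols, had the strongest at rank 612, at -120 bp and nearer to EMC6. ScpX followed at rank 2131, at -417 bp and nearer to CG17597. Of the sterol carrier genes, Npc2a had 3 peaks, with a promoter peak among them. Its strongest, at rank 3103, lay at -1431 bp and was nearest to Got2. The peak at Npc2b, at -600 bp with rank 6534, was nearest to Npc2b and was matched in 2 replicates. Npc1a and Npc1b, which encode sterol transporters of endosomes and gut, had none.

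A list of 6 genes held those of inactivation, export and import together with ecd and Cyp6t3, which are known for a part in ecdysteroid production. Of the 6, 3 had an optimal peak, beside 55.7% of all genes. Atet, which loads ecdysone into vesicles for release, had 2, the stronger at -823 bp with rank 1136 and the other at the promoter. The importer gene EcI (listed as Oatp74D) had 7, with a promoter peak among them, and the strongest at rank 1740 was nearest to edin. The peak at ecd (rank 622) was nearest to oxt. Cyp18a1 and Eo, which encode enzymes that inactivate ecdysteroids, had none.

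Transcription factors of the gland had optimal peaks at 7 of 11 genes and signals to the gland at 7 of 10, beside 55.7% of all genes. These genes are long, with a median searched window of 18588 and 21809 bp, against 10001 bp for all genes. Among the factors Hr4 was strongest (rank 130, 10 peaks), then cnc (rank 920), Mad (2346) and ken (2449), while ouib and kni had none. Among the signals Raf was strongest (rank 73, 15 peaks), then Egfr (944), Ptth (1047) and Ras85D (1805), while tor and rl had none. Ptth encodes the neuropeptide that starts ecdysone synthesis and tor its receptor, and the Ptth peak was nearest to cold.

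Markers of other larval tissues were counted in the same way. An optimal peak lay at 55.7% of all genes and a pooled one at 74.8%. Of 7 salivary gland genes none had an optimal peak and 6 had a pooled one. Of 6 fat body genes 3 had an optimal peak, none at a promoter. The strongest peak at Lsp2 was nearest to yps and that at Fbp2 to scat. Only Lsp1gamma had a peak nearest to its own TSS. Of 2 genes of the corpora allata and cardiaca, which share the ring gland with the prothoracic gland, Akh had one, nearest to Ras64B. Peaks mark DNA and not transcripts, so these counts do not show which tissue gave a peak.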

How the data were processed

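Binding of SREBP was measured by ChIP-seq in 3 biological replicates, 1 group per the labels. The authors aligned reads to dm6 and called peaks per replicate and on the pooled replicates, per the file headers, and the optimal set came from an IDR step over these lists. The sources used here do not name the aligner, the caller or its thresholds. Column 7 of the deposited lists is a score of peak strength on an unstated scale, used only for ranks within a list. The deposited -log10 q-value served as an alternative order. Per the labels, fragments spanned 200 to 800 bp. Depth is unknown, so no interval was computed.

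Summits were set against Ensembl gene models of the BDGP6 assembly, whose arms match dm6 in length, for the 13945 genes that code for protein on the main arms (2L, 2R, 3L, 3R, 4 and X). Coordinates count from 1. All 10 genes were matched, nobo by synonym as GstE14. Replicate summits matched within 150 bp, and a replicate summit could match more than 1 pooled summit. Nothing was tested, since there is 1 group. No sequence is printed for nobo, Start1 or the shd peak at 2295 bp.

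The genes, lists and motifs were chosen with earlier results of these data known. The rule for named genes took the 10 genes, genes whose TSS was nearer to a peak, rank neighbors, and up to 4 genes with and 2 without a peak per list. The listed genes sean and Mfe were not matched. Other cytochrome P450 genes were those with a P450 symbol of the Cyp form. Assignment and matching were checked on simulated data. Python 3.11.15, pandas 2.3.3, numpy 2.4.6 and matplotlib 3.10.9 were used.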

Additional observations from a re-analysis of the deposited data

How the results depend on the processing

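Counts out of the 10 genes depended mainly on the distance allowed. Genes with an optimal peak at the locus numbered 3, but 7 within 10 kb and 1 in the gene body only, beside 55.7%, 70.5% and 16.0% of all genes. The count at promoters was 2, but 1 within 250 bp (sro) and 0 among the 3996 strongest of the optimal set, beside 28.7%, 23.5% and 17.6% of all genes. Of the 39 other pathway genes, 25 had an optimal locus peak and 15 had one within 500 bp of a TSS. The cause of these shifts is the construction of each alternative, which admits fewer or more peaks. The other 20 alternative values of these counts stayed within 1.5 times the main one, but some of them could not have moved. Only 3 of the 10 genes had an optimal locus peak, and all 3 had one matched in all replicates. That count stayed at 3 with each replicate left out and with summits matched within 300 bp. These settings can only loosen the match, so the unchanged count is no evidence of stability. The mean rank of the strongest peak moved from 1648 to 2100 for sad, from 2332 to 2956 for shd and from 2187 to 3154.5 for sro when single replicates were left out. Of the motifs, CANNTG and AGATAA rose from 3 and 1 peaks to 5 and 2 within 100 bp. With summits matched within 50 bp the strongest shd peak gave no value, since its summit in replicate 2 lay 123 bp away. The optimal and pooled lists cannot be remade without a replicate. No paired analysis was possible because there is 1 group. With 3 replicates and no reads, a locus without a peak is one below each list's limit, not one shown to be unbound.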
